A study of Mus musculus with 6 samples.

Results

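The astrocyte marker genes followed here were Gfap, Aqp4, Aldh1l1, Aldoc, Gja1, Gjb6, Sox9, S100b and Glul. They were taken by gene symbol from the hippocampal RNA-seq table, and all 9 were found among its 15388 genes and passed the filter on low reads. The mice carried Cx3cr1-Cre/Ert2+ and NuTRAP+. The study's methods describe its mice as of both sexes and about 3 months old, without the sex of each animal. The animals had received tamoxifen to switch on the Cre recombinase. Recombined cells then express from NuTRAP a ribosomal protein fused to GFP, so that translating ribosome affinity purification (TRAP) with an anti-GFP antibody recovers their bound RNA. From each of 3 animals, numbered 201, 207 and 208, a sample of the cleared hippocampal homogenate was kept as Input, and the ribosomes held on the beads gave the Positive fraction, 6 libraries in all. Both fractions therefore shared the genotype, the treatment and the animal. The Cx3cr1 promoter is active in microglia and also in macrophages at the borders of the brain, which limits the Positive fraction as a purely microglial sample. Unbound ribosomes and Cre-negative animals were not analysed here.

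Astrocytes take up glutamate and potassium released at synapses, couple to each other through gap junctions, wrap blood vessels with endfeet and convert glutamate to glutamine. In this mouse model they are not expected to carry tagged ribosomes, so their transcripts are commonly used to judge how much RNA of untagged cells is present in a Positive fraction. The 9 genes cover the cytoskeleton, the endfoot water channel, connexins, metabolic enzymes, a transcription factor and a calcium-binding protein. Some of these are shared with other cells, and S100b and Glul are also expressed by oligodendrocytes.

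The libraries held 14879734 to 17757918 reads in the table. Of 15344 genes tested with edgeR, 7054 (46.0%) differed between Positive and Input at an adjusted p-value under 0.05, 3370 of them (22.0%) lower and 3684 (24.0%) higher. The higher genes made up 52.2% of the calls, and 41.6% under total count scaling. All 7 defining microglial markers and all 5 border macrophage markers were higher in Positive, with median log2 fold changes of 4.63 and 4.15. The Positive library of animal 208 was the lowest of the Positive libraries for each astrocyte marker. The counts over the markers and over the lists of neural cell types are given with and without it. Values below are scaled reads, that is, reads per gene divided by the size factor of the library, unless another scale is named.

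As a group, the astrocyte markers were modestly lower in the Positive fraction. In the edgeR fit over all genes, 5 of the 9 were lower (Gjb6, S100b, Sox9, Gja1 and Gfap), beside 22.0% of all genes tested, and 4 did not pass the threshold (Aldh1l1, Aqp4, Aldoc and Glul). None of the 9 was higher, beside 24.0% of all genes. That count of 0 was also 0 at an unadjusted p-value under 0.05 and with DESeq2 and limma. The median log2 fold change of the 9 genes was -0.41, or 75.1% of Input, where the median over all genes tested was -0.01. For 6 genes all 3 Positive libraries lay below all 3 Input libraries, beside 27.6% of all genes tested, and for none did all Positive libraries lie above all Input libraries, beside 29.0%. Since these are bulk fractions in relative reads, the source of the astrocyte RNA in the Positive fraction cannot be told from them and was not tested. Without the Positive library of animal 208, 5 genes were still lower, 1 (Glul) was higher, and the median was -0.24. In that fit 3435 of all 15348 genes tested were lower. Without the Positive library of animal 201, 8 genes were lower, beside 2981 of all 15346 genes tested, and the median was -0.58.

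**Figure D1:**
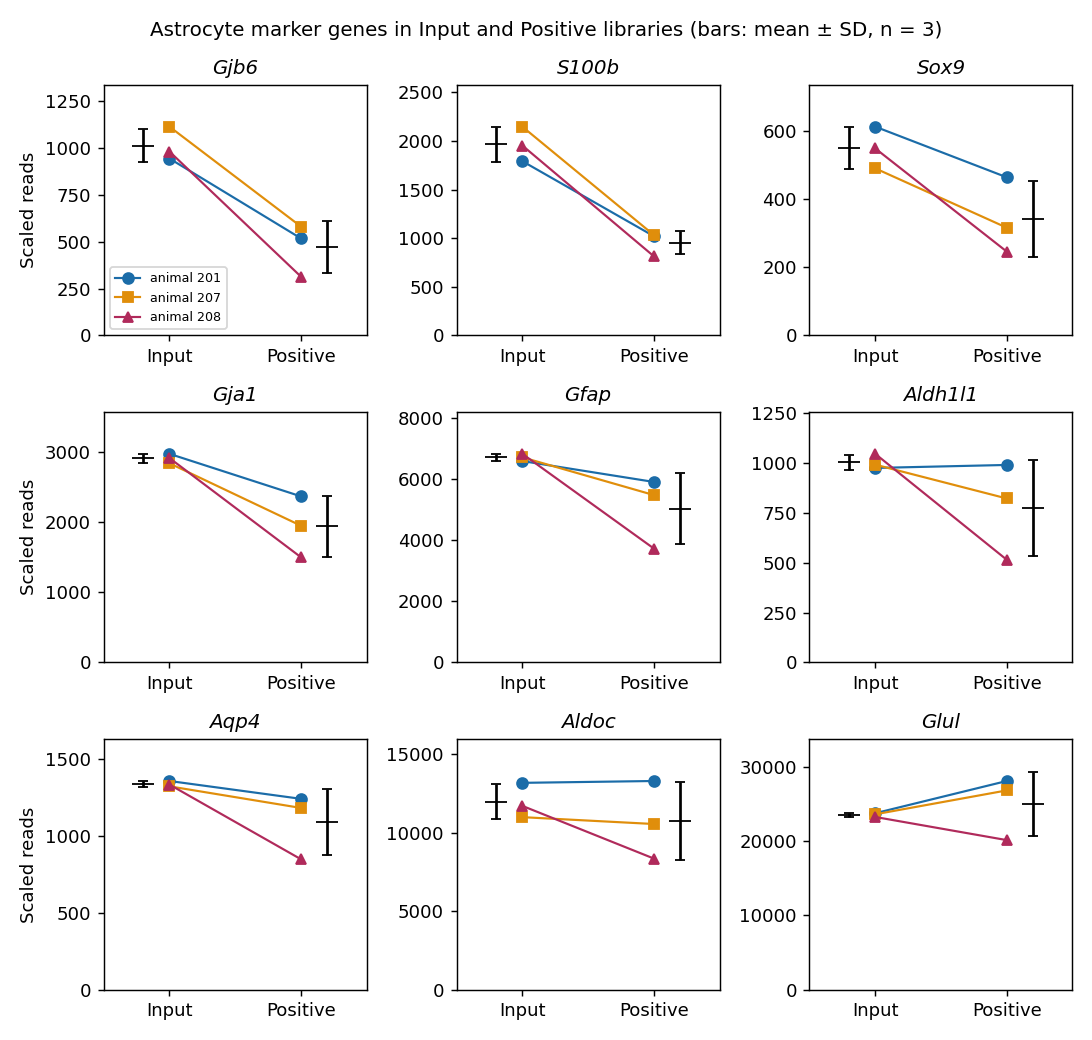
Scaled reads of the 9 astrocyte marker genes in Input and Positive libraries on linear axes that start at 0, with colored points for libraries, lines that join the fractions of an animal, and black bars for the mean ± SD of 3 libraries. Input points lie close together, and in every panel the lowest Positive point belongs to animal 208.

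Gfap encodes the glial fibrillary acidic protein, the main intermediate filament of astrocytes. It lies on the minus strand of chromosome 11, at 102887336 to 102900912 in mm10. Input held 6579, 6701 and 6816 scaled reads in animals 201, 207 and 208, and Positive held 5897, 5469 and 3722. The Positive libraries were all below the Input libraries, with animal 208 well below the other two. Gfap fell by 0.41 ± 0.13 on the log2 scale (SE, n = 3 per fraction; edgeR adjusted p = 0.0231). The within-animal log2 ratios were -0.16, -0.29 and -0.87. The call was lost when the Input library of animal 201, 207 or 208 was left out (edgeR adjusted p = 0.0570, 0.0628 and 0.0692). Without the Positive library of animal 208 the log2 fold change was -0.24 and the call was kept, at 0.0124.

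Gfap moved against the other filament genes of its list. Vim (vimentin), Nes (nestin) and Synm (synemin) were higher in Positive, by 0.80 ± 0.18, 1.57 ± 0.19 and 0.24 ± 0.09 on the log2 scale (edgeR adjusted p = 0.00285, 2.87e-05 and 0.0373). Vim and Nes are also expressed by endothelial cells, and all 5 endothelial markers were higher in Positive, with a median of 2.00. Their part in the filament values was not tested. The Synm call was lost without any single Input library or without the Positive library of animal 201 or 207, with adjusted p-values up to 0.133, under total count scaling (0.138) and with limma (0.103).

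Aqp4 encodes aquaporin 4, the water channel of the endfeet. It lies on the minus strand of chromosome 18, at 15389394 to 15403684. Input held 1358, 1324 and 1335 scaled reads in animals 201, 207 and 208, and Positive held 1242, 1183 and 849. The fractions did not overlap, although animals 201 and 207 kept 91.5% and 89.4% of their Input and animal 208 kept 63.6%. Its log2 fold change of -0.29 ± 0.12 did not pass the threshold in the unpaired edgeR fit, with an adjusted p-value of 0.0593. With the animal as a block it was -0.31 (edgeR adjusted p = 0.0166). It also passed once the Positive library of animal 201 was left out, with -0.40 and 0.0194, and under total count scaling, with -0.37 and 0.0228. Without the Positive library of animal 208 it was -0.14.

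The list of 12 endfoot, potassium and water transport genes that holds Aqp4 had a median of -0.31, with 5 genes lower and 1 higher. Mlc1, a membrane protein of endfeet, had -0.54 ± 0.13 (edgeR adjusted p = 0.00553).

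Gja1 and Gjb6 encode connexin 43 and connexin 30, which form the gap junctions of astrocytes. Gja1 lies on the plus strand of chromosome 10, at 56377330 to 56402513, and Gjb6 on the minus strand of chromosome 14, at 57123303 to 57133611. For Gja1, Input held 2977, 2842 and 2916 scaled reads in animals 201, 207 and 208, and Positive held 2370, 1951 and 1501. For Gjb6, Input held 945, 1115 and 982, and Positive held 518, 581 and 313. Neither gene overlapped between fractions, and the fall was steeper for Gjb6 in every animal. Gja1 had a log2 fold change of -0.58 ± 0.13 (edgeR adjusted p = 0.00234). Gjb6 had -1.10 ± 0.17 (edgeR adjusted p = 0.000192), and kept 54.8%, 52.1% and 31.9% of Input in animals 201, 207 and 208. The within-animal log2 ratio of Gja1 exceeded that of Gjb6 by 0.54 ± 0.145 (SD, n = 3 animals), with the same sign in 3 of 3 animals. An exact permutation test over 3 animals cannot go below p = 0.25, so no p is given for differences between genes.

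Among 12 connexin and pannexin genes tested, 6 were lower and 2 higher, with a median of -0.59. Gjc3, a connexin of oligodendrocytes, had -1.91 ± 0.17 (edgeR adjusted p = 1.79e-06). Both astrocyte connexins had larger ratios than Gjc3, a difference that was not tested. Gja5 (connexin 40), an endothelial connexin, was higher by 1.65 ± 0.32 (edgeR adjusted p = 0.00103), at 14.1 ± 4.85 and 44.1 ± 7.88 scaled reads.

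Aldh1l1 encodes 10-formyltetrahydrofolate dehydrogenase, an enzyme of folate metabolism whose promoter is widely used to mark astrocytes. It lies on the plus strand of chromosome 6, at 90486427 to 90600203. Input held 975, 992 and 1046 scaled reads in animals 201, 207 and 208, and Positive held 990, 822 and 515. The fractions overlapped, because Positive of animal 201 was at 102% of its own Input while animal 208 was at 49.2%. No other marker differed as much between animals. The log2 fold change was -0.37 ± 0.17 (edgeR adjusted p = 0.0921) in the unpaired fit. With the animal as a block it was -0.41 (edgeR adjusted p = 0.0242). Leaving out 1 Positive library moved it to -0.58 with 0.00846 without animal 201 and to -0.15 with 0.221 without animal 208. Under total count scaling it was -0.45, with 0.0484.

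In the folate, glycine and serine list of 14 genes, 4 were lower and 2 higher, and the median was -0.06. Psat1, of serine synthesis, had -0.43 ± 0.09 and Amt, of the glycine cleavage system, had -0.76 ± 0.15 (edgeR adjusted p = 0.00169 and 0.00131). The cytosolic and mitochondrial folate enzymes Mthfd1 and Mthfd2 were higher by 0.35 ± 0.09 and 0.69 ± 0.17 (edgeR adjusted p = 0.00598 and 0.00594).

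Aldoc encodes aldolase C, the brain aldolase of glycolysis, and lies on the plus strand of chromosome 11, at 78322968 to 78327781. Its sequence resembles that of Aldoa, the aldolase of most tissues. The coding stretch around their longest common run is therefore shown to judge whether reads of one could count for the other. The stretches span 90 bases of the mature transcripts and 2 exons each, at chr11:78325157-78325365 on the plus strand for Aldoc and chr7:126796264-126796647 on the minus strand for Aldoa in mm10, read 5′ to 3′ from GENCODE transcripts, with the 12 mismatched bases in capitals.
Aldoc: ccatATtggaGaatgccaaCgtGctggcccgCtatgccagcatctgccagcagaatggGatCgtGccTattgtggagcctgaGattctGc
Aldoa: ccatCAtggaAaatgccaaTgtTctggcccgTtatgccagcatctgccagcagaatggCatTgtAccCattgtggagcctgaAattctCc
The longest run common to both transcripts was 26 bases, and no word of 42 bases, the length left of a 50-base read after trimming, was shared. Reads of that length were therefore specific to either gene when aligned without mismatches. The study's alignment also accepted reads with some mismatches, and how it placed such reads of these genes was not tested.

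Aldoc had 13160, 10978 and 11694 scaled reads in Input of animals 201, 207 and 208, and 13278, 10541 and 8343 in Positive. The fractions overlapped, with animal 201 at 101%, animal 207 at 96.0% and animal 208 at 71.3% of Input. The log2 fold change was -0.16 ± 0.14 (edgeR adjusted p = 0.384), and it was -0.34 with 0.0371 without the Positive library of animal 201 and -0.00 without that of animal 208. Aldoa was higher in Positive by 0.25 ± 0.09 (edgeR adjusted p = 0.0427). That call was lost without any single Input library or the Positive library of animal 201 (adjusted p-values up to 0.168). It was also lost under total count scaling (0.147), with the animal as a block (0.0564) and with limma (limma adjusted p = 0.104).

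Glul encodes glutamine synthetase, which turns glutamate taken up by astrocytes into glutamine, and lies on the plus strand of chromosome 1, at 153899944 to 153909723. Of the words of 42 bases in its annotated transcripts, 15.0% also occur in other genes, mostly the processed pseudogene Glns-ps1 on chromosome 11, which is not a row of the table. A shared coding stretch is shown because the way the authors' aligner placed such reads could change the Glul count. It is 90 bases within 1 exon at chr1:153908040-153908129 on the plus strand in mm10, with no mismatch to the pseudogene.
Glul: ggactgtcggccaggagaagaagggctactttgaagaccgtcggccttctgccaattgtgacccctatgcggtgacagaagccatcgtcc
The shared run was 143 bases long. The same transcripts were measured in every library, so the uncertainty applies to both fractions. Of the other members, Gfap, Aqp4, Gjb6 and S100b, like Aldoc, shared no such word with another gene, and Aldh1l1, Gja1 and Sox9 shared 1.40%, 0.442% and 0.0733% of theirs.

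Glul was the marker with the most reads and the one with a ratio above 0. Input held 23748, 23605 and 23245 scaled reads in animals 201, 207 and 208, and Positive held 28088, 26821 and 20131. Input varied by 1.10% (coefficient of variation) and Positive by 17.1%, with animals 201 and 207 above all Input libraries and animal 208 below them. The log2 fold change was 0.09 ± 0.12 (edgeR adjusted p = 0.568). Without the Positive library of animal 208 Glul was higher by 0.22 (edgeR adjusted p = 0.0124), and without that of animal 201 it was at -0.0044, so that the sign of its fold change rested on single libraries.

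Of 9 genes of glutamate and GABA uptake and glutamine handling, 2 were lower and 2 higher, with a median of -0.03. Of all genes tested, 22.0% were lower and 24.0% higher. Slc1a2 (GLT-1), the main glutamate transporter of astrocytes, went from 31134 ± 1513 scaled reads to 38100 ± 4436. It was higher by 0.29 ± 0.10 (edgeR adjusted p = 0.0365). The call was lost without any single Input library or the Positive library of animal 207 (up to 0.151). It was also lost under total count scaling (0.103) and with limma (limma adjusted p = 0.0936). Slc1a3 (GLAST), the other astroglial glutamate transporter, had -0.22 ± 0.11 (edgeR adjusted p = 0.120), and -0.33 with 0.0230 without the Positive library of animal 201. Slc7a11, the cystine and glutamate exchanger, was lower by 0.71 ± 0.14 (edgeR adjusted p = 0.00135). In the fit of all libraries Glul and Slc1a2 had ratios above 0 where Slc1a3 and Slc7a11 had ratios below 0. Of these, Glul and Slc1a3 were not called, and a difference between the genes was not tested.

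Sox9 encodes a transcription factor of the SoxE group that specifies and marks astrocytes, and lies on the plus strand of chromosome 11, at 112782224 to 112787760. It was the least abundant marker. Input held 613, 491 and 549 scaled reads in animals 201, 207 and 208, and Positive held 464, 316 and 246, with no overlap. Sox9 fell by 0.69 ± 0.18 on the log2 scale (edgeR adjusted p = 0.00887), and the animals kept 75.7%, 64.5% and 44.8% of Input. Among the 17 alternatives the call was lost only when both libraries of animal 207 were left out, with -0.71 and an adjusted p-value of 0.0554.

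In the list of SoxE and astroglial transcription factors, 9 of 17 genes were lower and 0 higher in edgeR, 0 higher also with DESeq2 and at an unadjusted p-value under 0.05, with a median of -0.47. Sox10, the SoxE factor of the oligodendrocyte lineage, went from 548 ± 53.5 scaled reads to 139 ± 33.0 and had the smallest ratio, -1.98 ± 0.16 (edgeR adjusted p = 5.40e-07). Id4, a helix-loop-helix inhibitor of astroglia and progenitors, was lower by 0.79 ± 0.12 (edgeR adjusted p = 0.000124). Sox9 and Sox10 both passed the threshold, with a larger ratio for Sox9, and the difference between them was not tested.

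S100b encodes a calcium-binding protein that both astrocytes and oligodendrocytes express, and lies on the plus strand of chromosome 10, at 76253853 to 76261159. Input held 1791, 2146 and 1953 scaled reads in animals 201, 207 and 208, and Positive held 1020, 1032 and 813. The fractions were far apart, and the Positive values were closer to each other than those of any other marker, with a coefficient of variation of 12.9%. S100b fell by 1.04 ± 0.10 on the log2 scale (edgeR adjusted p = 4.13e-06, the smallest of the 9). In the study's cell-sorting lists S100b stands among the oligodendrocyte genes, and 7 of the other markers stand among the astrocyte genes. All 7 defining oligodendrocyte markers were lower in Positive, with a median of -2.44, and the part of that in the value of S100b was not tested.

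Among 7 of 10 genes of the S100 family that were tested, 5 were lower and 1 higher, with a median of -0.93. S100a16, S100a1 and S100a6 had -1.42 ± 0.14, -0.93 ± 0.15 and -1.48 ± 0.21 (edgeR adjusted p = 3.01e-06, 0.000337 and 0.000112). S100a11 was the gene that was higher, by 0.86 ± 0.31 (edgeR adjusted p = 0.0394) at 27.7 ± 10.7 and 51.0 ± 12.6 scaled reads, and this was lost without the Input library of animal 207 or 208 or the Positive library of animal 201 or 207, with adjusted p-values up to 0.152, under total count scaling (0.0566) and with DESeq2 (0.0571). S100b lay between S100a16 and S100a1 in ratio.

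The markers did not share 1 ratio. Within each animal the order of the ratios was nearly the same: Gjb6 and S100b were the lowest pair, Sox9 came next and Glul was highest in 3 of 3 animals. Of 36 pairs of markers, 31 differed with the same sign in all 3 animals. Of the 5 pairs that changed order, 4 involved Aldh1l1, which had a lower ratio than Gja1 in animal 208 and a higher one than Aldoc in animal 201, and the other was Gjb6 with S100b. The spread between markers within an animal ran from -0.87 for Gjb6 to 0.24 for Glul in animal 201, from -1.06 for S100b to 0.18 for Glul in animal 207, and from -1.64 for Gjb6 to -0.21 for Glul in animal 208.

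**Figure D2:**
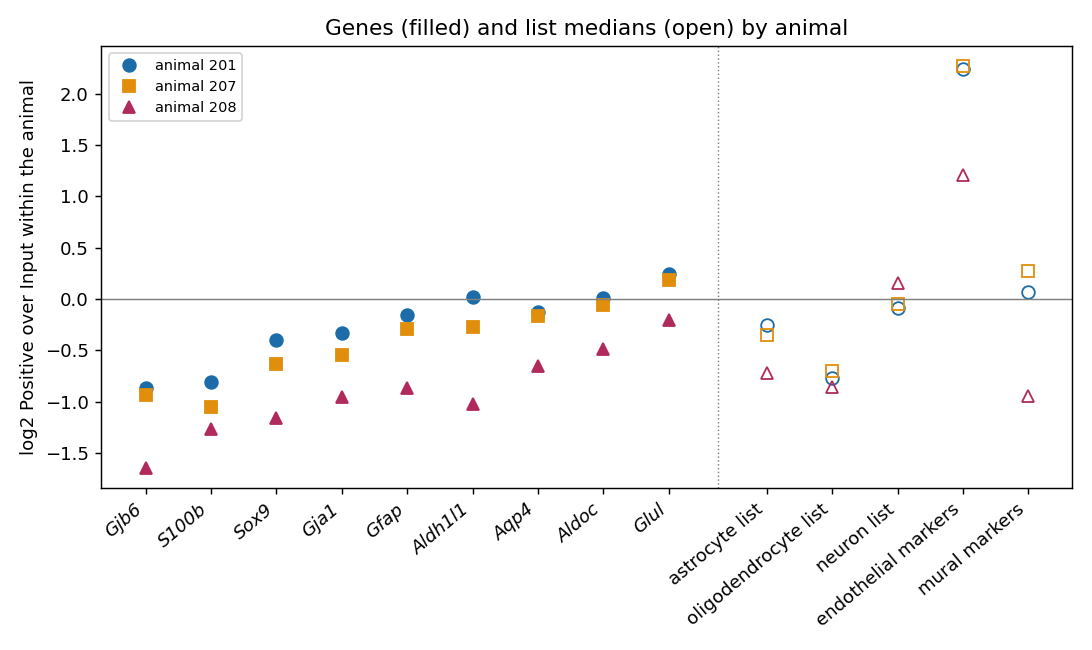
Log2 ratio of Positive over Input within each animal for the 9 astrocyte marker genes (filled) and, as medians, for the cell-sorting astrocyte list and lists of other cell types (open), in scaled reads plus a pseudocount of 1. The values of animal 208 (triangles) are the lowest for each marker, from -1.64 for Gjb6 to -0.21 for Glul.

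For each of the 9 markers the ratio was lowest in animal 208. Animals 201 and 207 also differed from each other, as for Sox9, with 464 and 316 scaled reads in Positive beside 246 in animal 208. The median ratio of the 9 markers was -0.16 in animal 201, -0.29 in 207 and -0.96 in 208. The coefficient of variation over animals was 1.10% to 11.1% in Input and 12.9% to 32.6% in Positive. In log2 scaled reads of the Positive fraction alone, animal 208 was below the mean of animals 201 and 207 for each of the 9 markers, from -0.33 for S100b to -0.81 for Aldh1l1 and Gjb6, with a median of -0.52. In Input the same difference ran from -0.06 for Gjb6 to 0.09 for Aldh1l1. Over 12122 genes with at least 100 scaled reads the Positive difference had a median of -0.02, with quartiles of -0.21 and 0.12. Its median was -0.40 for the cell-sorting astrocyte list, -0.18 for the oligodendrocyte list, 0.19 for the neuron list and -0.42 for the microglia list. For the vascular markers it was -0.79 (5 endothelial) and -0.84 (5 mural), where Input of animal 208 was above the other animals by medians of 0.29 and 0.11. With 1 library of this kind no test was made, and a part of vessels and their endfeet in the marker values was not tested.

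Levels of the markers were compared as RPKM, reads scaled to exon length and library total, with exon lengths from GENCODE. In Input, Glul stood at 455 ± 5.80, Aldoc at 235 ± 21.3, Gfap at 102 ± 1.82 and S100b at 85.0 ± 7.98 (SD, n = 3). Gjb6 followed at 24.4 ± 2.24, Gja1 at 18.2 ± 0.366, Aldh1l1 at 14.3 ± 0.508, Aqp4 at 13.8 ± 0.151 and Sox9 at 8.56 ± 0.927. Only Aldh1l1 and Aqp4 overlapped among neighbors in that order. In Positive, Glul was at 459 ± 80.4, Aldoc at 200 ± 47.7, Gfap at 72.7 ± 17.0 and S100b at 39.2 ± 5.15, and below them Gjb6, Gja1, Aldh1l1 and Aqp4 lay between 10.5 and 11.5 with overlapping neighbors. Gjb6 thus stood clear of the other connexin in Input and not in Positive. Sox9 stayed the lowest, at 5.05 ± 1.69.

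Against other cell types the markers lay between neurons and oligodendrocytes. The study's cell-sorting astrocyte list had 85 of 138 genes lower and 3 higher, with a median of -0.42, close to the -0.41 of the 9 markers, 7 of which are in it. The oligodendrocyte list had 137 of 186 lower and 10 higher, with a median of -0.78. The neuron list had 18 of 99 lower and 22 higher, with a median of -0.01. Once the Positive library of animal 208 was left out, the astrocyte list had 70 genes lower and 5 higher, the oligodendrocyte list 141 and 11, and the neuron list 27 and 20. The medians were then -0.30, -0.69 and -0.07. In the fit of all libraries, Gjb6 and S100b, at -1.10 and -1.04, were below the median of the oligodendrocyte list, which holds S100b itself. Both were above the median of the 7 defining oligodendrocyte markers, -2.44. Aldoc and Glul, at -0.16 and 0.09, were nearer to the neuron median.

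**Figure D3:**
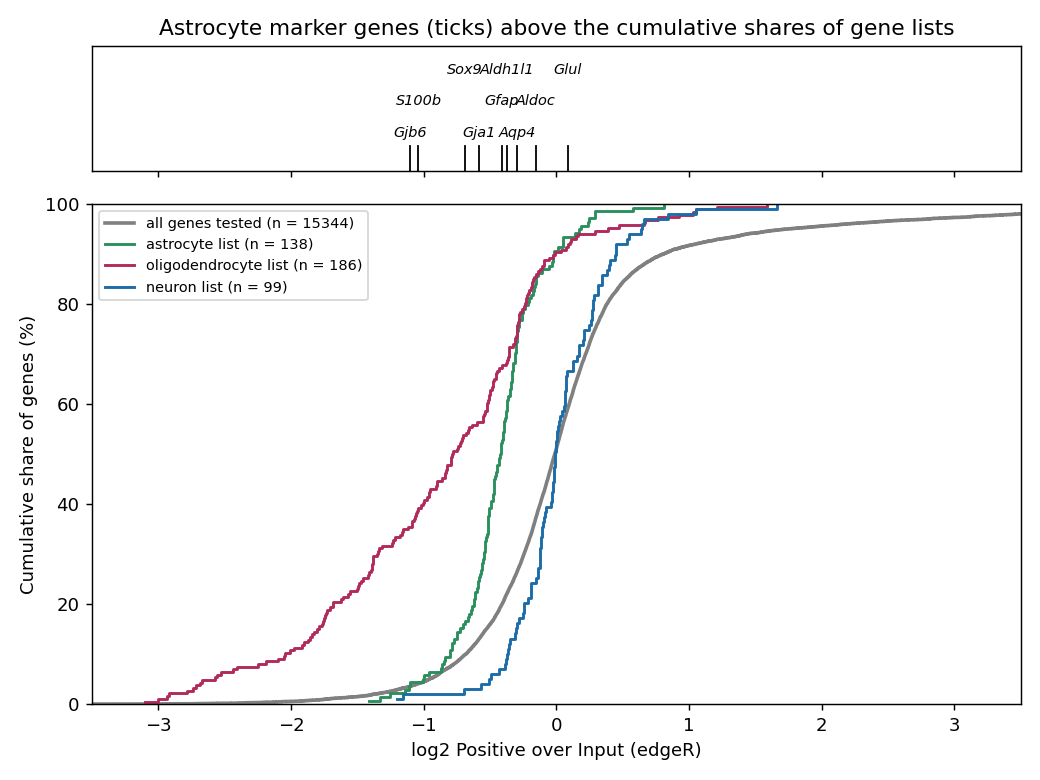
Cumulative share of genes (%) against the log2 fold change of Positive over Input for all 15344 genes tested and for the cell-sorting astrocyte, oligodendrocyte and neuron lists, with the 9 markers as ticks in the strip above. The median of the astrocyte curve (-0.42) lies between those of oligodendrocytes (-0.78) and neurons (-0.01), and the markers span from Gjb6 at -1.10 to Glul at 0.09.

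Of the other astrocyte-list genes with at least 100 scaled reads and a call, the lowest were Fxyd1, a sodium pump regulator, at -1.42 ± 0.19, and Ptprz1, a receptor phosphatase of astroglia and oligodendrocyte precursors, at -1.11 ± 0.12. Their edgeR adjusted p-values were 6.29e-05 and 6.78e-06. Gjb6 was next to Ptprz1 in that order. At the upper end was Abcd2, a peroxisomal transporter, at 0.81 ± 0.12 (edgeR adjusted p = 0.000110).

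The genes whose pattern over the 6 libraries was most like that of the markers were sought among 12113 genes with at least 100 scaled reads. The measure was the root mean square difference of centered log2 scaled reads from the median profile of the 9 markers. The closest were Dennd6b at 0.031, Slc26a6 at 0.033, Pla2g7 at 0.035, Slc16a11 at 0.041 and Klhdc7a at 0.051. Because the measure selects for the markers' profile, they were by construction near-constant in Input and lowest in Positive of animal 208. Their log2 fold changes, set by the same selection, were -0.44, -0.46, -0.39, -0.49 and -0.44. Without both libraries of animal 208 the values were -0.26 for Dennd6b, -0.21 for Pla2g7, -0.32 for Slc16a11 and -0.27 for Klhdc7a. Each of these lost its call there (edgeR adjusted p = 0.0665, 0.107, 0.0717 and 0.140). Slc26a6 had no call in the fit of all libraries.

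**Figure D4:**
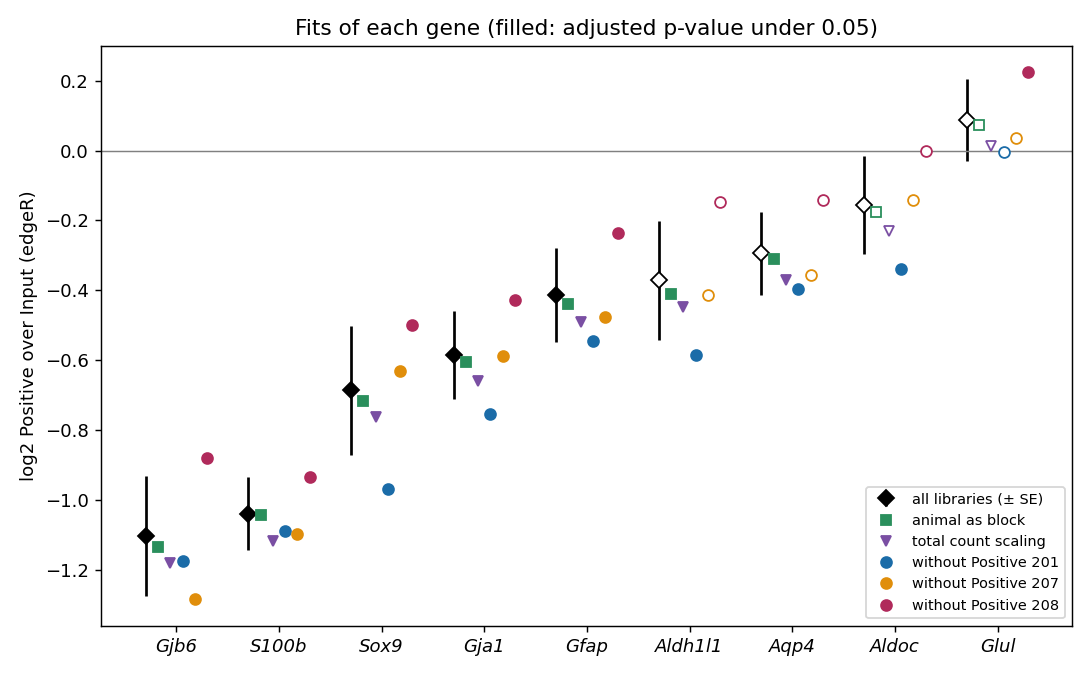
Log2 fold change of each marker in edgeR fits with all libraries (black diamond, ± SE), with the animal as a block, with total count scaling and without each Positive library, where filled symbols passed an adjusted p-value of 0.05. Gjb6, S100b, Sox9 and Gja1 stayed filled and below 0 in the fits drawn, and Glul lay between -0.0044 and 0.22.

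Across all 17 alternative fits, Gja1, Gjb6 and S100b passed the threshold each time, Sox9 in 16 and Gfap in 11. Aldh1l1 passed in 4, Aqp4 in 3, and Aldoc and Glul in 1 each. The log2 fold changes ranged from -0.75 to -0.43 for Gja1, from -1.28 to -0.88 for Gjb6 and from -1.15 to -0.94 for S100b. Sox9 ranged from -0.97 to -0.50, Gfap from -0.55 to -0.22 and Aqp4 from -0.40 to -0.14. Aldh1l1 ranged from -0.60 to -0.12 and Aldoc from -0.34 to -0.00. Glul was the marker whose range crossed 0, from -0.0044 to 0.22.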

How the data were processed

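TRAP-RNAseq was measured in hippocampal Input and Positive fractions of 3 mice. Per the study's methods, the authors trimmed reads, aligned them to mm10 in Strand NGS, strand-aware, and obtained a read number per gene. The deposited expected counts are estimated counts that need not be whole, kept by the authors where 1 fraction or both had 20 or more raw reads throughout. The deposited log2 values are those reads divided by a DESeq size factor, minus the gene's Input median. Whether both mates of a pair were counted is not given in the sources used here, so counts divided by 2 were also fitted.

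Expected counts were rounded and tested in R 4.3.3 with edgeR 4.0.16 (quasi-likelihood, RLE scaling, unpaired), over 15344 genes with more than 20 scaled reads in every library of a fraction, with Benjamini-Hochberg adjustment over all of them. The SE of an edgeR log2 fold change is its absolute value divided by the square root of the quasi-likelihood F statistic. The code was tested on simulated data. The 44 genes left out were not members. With 14879734 to 17757918 reads per library, p-values measure the spread between 3 animals. Alternatives were TMM and total count scaling, other filters, DESeq2 1.42.0, limma 3.58.1 on the deposited log2 values, an animal block, other pseudocounts for the within-animal ratios, and leaving out libraries or animals.

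Fractions pair by animal number, since both came from the same homogenate. Their deviations from the group means correlated at 0.27, 0.085 and 0.15 in animals 201, 207 and 208 (12122 genes). Member genes and lists were chosen with earlier results of these data known, so their counts are descriptions. The cell-sorting lists and a ribosomal-tagging astrocyte list are from the study's supplement, and the other lists were written by hand. Genes named with values are the 9 members, genes among the most abundant or the extreme ratio of each hand-written list, called extremes of the cell-sorting astrocyte list, and the 5 closest profiles. Words of 42 bases, a 50-base read less 2 and 6 trimmed bases, were searched in 141767 GENCODE transcripts. Counting used strand, so genes on the opposite strand of members should not add reads. A few genes of these lists are not reported here by name.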

Additional observations from a re-analysis of the deposited data

How the results depend on the processing

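The pairing by animal, as a replicate block, gave 7566 genes called, 3663 of them lower. It gave 7 members lower, 0 members higher, 95 of the astrocyte list lower and a member median of -0.44. Among the members it changed the calls of Aqp4 and Aldh1l1 alone. Leaving out 1 library or 1 animal, the genes called ranged from 4328 to 7256 and all genes lower from 1895 to 3435. Members lower then ranged from 3 to 8, members higher from 0 to 1 and astrocyte-list genes lower from 52 to 96. The member median ranged from -0.60 to -0.22. The lowest counts were those without both libraries of animal 207, where Gfap (adjusted p-value 0.0782) and Sox9 (0.0554) were lost in edgeR. Without the Positive library of animal 201, Glul turned to -0.0044, and without that of animal 208 it was called higher, at 0.22. Members lower were 7 under total count scaling, where 4272 of all 15344 genes were lower, beside 3370 in the main fit. Members lower were 4 with limma, where 3198 of all genes were lower and Gfap had an adjusted p-value of 0.0671. With DESeq2, TMM scaling, no filter, at least 100 scaled reads or counts divided by 2 they were 5. The causes were not tested. Over the 67 genes followed through these alternatives, 1 value reversed, 95 lost and 17 gained a call, and 1021 kept direction and side of the threshold. Within-animal means moved by less than their SD with pseudocounts of 0.1 or 10. Log2 fold changes of the members had SEs of 0.10 to 0.18 with 3 animals, and Gfap, Aqp4, Aldh1l1, Aldoc, Glul and Sox9, whose calls differed between settings, are not settled at this number of animals.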

Other observations

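Of 11 genes of lipid handling tested, 7 were lower and 1 higher, with a median of -0.54. Clu (clusterin), a secreted apolipoprotein, went from 12569 ± 213 scaled reads to 8205 ± 1590 and was lower by 0.62 ± 0.12 (edgeR adjusted p = 0.000979), and Prdx6, a peroxiredoxin, was lower by 0.61 ± 0.12 with 0.00110. Abca1, a cholesterol exporter that macrophages and microglia also express, was higher by 1.02 ± 0.13 (edgeR adjusted p = 2.73e-05). Apoe had 0.24 ± 0.13 with 0.141, and 0.39 with 0.00055 without the Positive library of animal 208. Of 12 receptors of astroglia, 7 were lower and 0 higher in edgeR and in DESeq2 (1 higher at an unadjusted p-value under 0.05), with a median of -0.41. Gpr37l1, an orphan receptor of astrocytes, was lower by 0.75 ± 0.13 and Fgfr3, a growth factor receptor, by 0.43 ± 0.11 (edgeR adjusted p = 0.000402 and 0.00621). Of 14 synaptogenic and matrix genes, 5 were lower and 1 higher, with a median of -0.30. The gene that was higher was Sparc, a matrix protein that adult microglia express, by 2.46 ± 0.12 (edgeR adjusted p = 4.06e-09), from 5317 ± 178 to 29356 ± 4901 scaled reads. Of 10 genes of glycogen and lactate, 3 were lower and 3 higher, with a median of -0.25, and Ldhb and Ldha, the lactate dehydrogenase subunits, were higher by 0.53 ± 0.09 and 0.39 ± 0.07, with 0.000278 and 0.000762.

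The ribosomal-tagging astrocyte list, of which 92 of 126 genes were tested and which holds Glul and Aldoc, had 30 genes lower and 10 higher, with a median of -0.34. Of 8 radial-glia-like genes tested from 11, 6 were lower and 2 higher, with a median of -0.84. Hopx, a homeodomain protein of neural stem cells and astrocytes, was lower by 1.26 ± 0.12 (edgeR adjusted p = 1.92e-06), and Lpar1, which oligodendrocytes also express, by 1.79 ± 0.21 with 2.10e-05. Nes of this list was higher by 1.57 ± 0.19 (edgeR adjusted p = 2.87e-05). Of 15 reactive-astrocyte genes tested from 20, 2 were lower and 6 higher, with a median of 0.58. Gbp2, an interferon-induced GTPase, was higher by 1.73 ± 0.24 and Cp (ceruloplasmin) by 1.12 ± 0.20 (edgeR adjusted p = 7.75e-05 and 0.000472). Serping1 was lower by 0.95 ± 0.26 (edgeR adjusted p = 0.0110), a call lost without the Input library of animal 201 (0.0513) or both libraries of animal 207 (0.120). In the same fractions the endothelial markers were higher by a median of 2.00, the microglial markers by 4.63, and their part in the reactive list was not tested. Other defining lists had 5 of 5 precursor markers lower (median -1.67), 1 of 7 neuronal markers higher (0.08), 0 of 5 mural markers called in edgeR and in DESeq2 (1 at an unadjusted p-value under 0.05, median -0.29) and 3 of 6 ependymal and choroid plexus markers lower (-0.96). The cell-sorting microglia list had 234 of 238 genes higher and 1 lower, with a median of 3.65.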
